A study of Mus with 6 samples.

Results

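Type I interferon response genes were described in leukaemic stem and progenitor cells with and without Klf4. The list held 41 mouse genes, and its members were all probes of the array whose annotated symbol was one of them. Probes were found for 39 of the 41 genes, 77 probes among the 45281 on the array, while Ifi44 and Ifi203 matched no symbol of the annotation and are not analysed here. The samples were 3 Klf4-deficient (KO) and 3 wild-type (WT) preparations of bone marrow cells from C57BL/6 mice with chronic myeloid leukaemia (CML), taken 14 days after transplantation. In both groups the leukaemia was driven by BCR-ABL p210 and the cells were sorted as GFP+ and lineage-negative, with Sca-1 and c-Kit on the surface (LSK), the phenotype of stem and early progenitor cells. RNA of each preparation was read on a 1-colour Illumina bead array. The labels do not say how Klf4 was deleted, nor whether each preparation is a mouse of its own, and the p-values therefore cover only the spread between preparations, which may be technical.

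Type I interferons bind a receptor shared by all of them, and the kinases on that receptor activate STAT proteins. STAT2 and IRF9 act in a complex that enters the nucleus and switches on a broad set of genes, many of which block the replication of viruses. Some of these genes are known to be expressed in stem cells without infection, and interferon drives dormant blood stem cells of mice into cycle. Interferon alpha was also long used as a treatment of CML.

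The deposited arrays share one scale, with 15.6% to 15.9% of probes per array above an intensity of 32. Values at or below 32 were set to 32, called the floor here. A difference is thus understated where one group lies wholly at the floor and the other wholly above it. Other folds that touch the floor are not bounds. A group wholly at the floor also has no spread left, so an SE or p there leaves out the spread between its preparations. WT replicate 3 stood apart: over the 18270 probes above the floor on at least 1 array its correlation with the other arrays was at most 0.30, across probes, which are not independent replicates, against 0.66 to 0.72 among the other 5. The main counts over the list and the differences of the genes given by value are therefore given with and without that array. Of 18 readings of Klf4 (3 probes on 6 arrays), 1 was above the floor, 51.9 in WT replicate 2, so Klf4 itself gave no check of the labels.

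The interferon response genes were mostly dim, and no difference between Klf4-deficient and WT cells passed the test. Of the 39 genes with a probe, 9 lay at the floor on all 6 arrays on every probe, and 30 exceeded it on at least 1 array on their brightest probe, the probe with the highest mean. On that probe 7 of the 30 were above it on Klf4-deficient arrays alone and 1 on WT arrays alone, and for these the filter fixed the direction. Among the 30, 18 read higher in Klf4-deficient cells and 12 lower, 60% and 40%, beside 43.4% and 56.5% of the 10236 genes fitted in the same way. Without WT replicate 3 the members split 21 higher and 9 lower, beside 55% and 45% of the 8147 genes still above the floor. The other genes of the 10236 were above it on WT replicate 3 alone, so the filter made them read lower. None of the 30 members was of that kind. Shares and medians over all genes fitted on 6 arrays, here and below, include those genes. Without Klf4-deficient replicate 2 the members split 12 higher and 15 lower of 27. The split was 22 higher and 8 lower where 16 was added to each signal and no floor was set, and 23 and 7 with each gene's probes averaged. The median difference of the 30 was 0.15 on the log2 scale, beside -0.10 over all genes fitted. It was 0.25 without WT replicate 3, beside 0.06, and -0.08 without Klf4-deficient replicate 2, beside -0.15. With the 9 genes at the floor counted as no difference, the median was 0.

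With limma, 0 of the 30 genes were called, that is had an adjusted p under 0.05, as did 0% of all genes and of all 18270 probes. The adjusted p of the members ran from 0.71 to 0.99. An unadjusted p under 0.05 was reached by 4 members, all higher in Klf4-deficient cells, Rsad2, Ifit2, Isg20 and Eif2ak2 (13.3%), beside 1.56% of all genes in that direction. Eif2ak2 was at the edge of that threshold, with a limma p that rounds to 0.05 and was 0.051 with quantile normalization. Without WT replicate 3 these were 2 higher, Rsad2 and Ifit2, beside 1.51% of all genes, and 1 lower, Plscr1, beside 2.77%. Over all arrays the count was 0 members in either direction with trend and robust eBayes and 1 with the ordinary t statistic. The 3 Klf4-deficient values lay wholly above the 3 WT values for Rsad2, Ifit2 and Isg20, 10% of the 30, beside 2.31% of all genes, and wholly below them for 0 members, beside 1.18%. Without WT replicate 3 those 3 genes lay wholly above, as they must (10%, beside 3.88%), and Plscr1 lay wholly below (3.33%, beside 5.45%). With 2 arrays in a group the share over all genes was larger. Without Klf4-deficient replicate 1, 6 members (20%) lay wholly above, with Isg15, Oas2 and Irgm1 added, beside 5.65% of all genes. Without WT replicate 2, 4 members (13.3%) lay wholly above, with Samhd1 added, beside 5.98%, and Igtp lay wholly below (3.33%, beside 4.4%). The members were also set against genes measured as often. Above the floor on at least 3 of 6 arrays were 18 members and 3894 genes in all, and 11 of these members (61.1%) read higher, beside 57.5% of the genes. Without WT replicate 3 these shares were 66.7% and 52.4%. Wholly separate upward were 16.7% of those members, beside 6.06% of the genes, and 16.7% beside 8.12% without WT replicate 3. A gene wholly separate upward is above the floor on 3 Klf4-deficient arrays, so this filter removed none of them. They numbered 236 before and after it (316 without WT replicate 3), and only the total shrank. Isg20 was among the 18 through its Klf4-deficient arrays alone, which fixed its direction and its separation. A difference above 1 on the log2 scale was held by 6 of the 30 members (20%), beside 10.5% of all genes, and by 33.3% of the 18, beside 21.7% of the genes measured as often (27.8% beside 12.8% without WT replicate 3). The median difference of the 18 was 0.15, beside 0.18 over those genes, and 0.22 beside 0.05 without WT replicate 3.

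**Figure D1:**
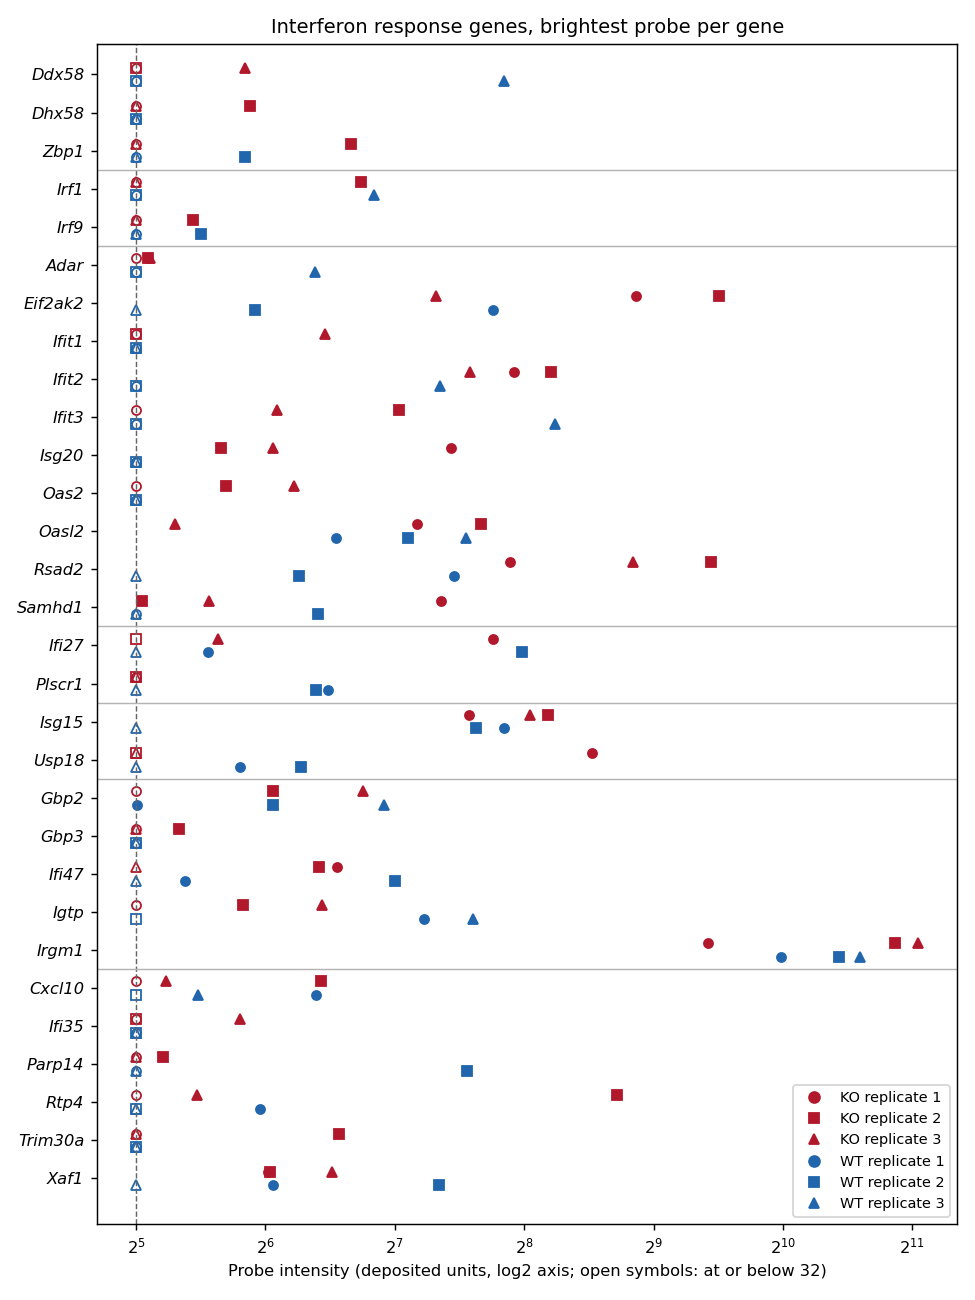
Intensity of the brightest probe of the 30 interferon response genes above the floor on at least 1 array, on a log2 axis, with Klf4-deficient (KO) arrays in red above WT arrays in blue and 1 symbol shape per replicate number. Open symbols mark values at or below 32, drawn at 32. Horizontal lines part the genes by role, from sensors at the top to other induced genes at the bottom. Irgm1 lay between 686.9 and 2114.7 on all arrays, while most genes had at least 1 array at the floor.

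The 4 members with the largest differences were Rsad2, Eif2ak2, Ifit2 and Isg20. They were grouped here with the effectors on viral nucleic acids, their synthesis or their translation, the role with the most genes of the list. Rsad2 encodes viperin, a radical SAM enzyme that makes a chain-terminating nucleotide against viral polymerases. It read 237, 695.5 and 458.8 in Klf4-deficient replicates 1 to 3, against 176, 76.7 and -3.7 in WT replicates 1 to 3, where a value below 0 is a probe dimmer than the background subtracted before deposit. All Klf4-deficient values were above all WT values, and WT replicate 3 lay at background. The difference was 2.48 ± 0.75 on the log2 scale (SE, n = 3 per group), or 5.59-fold, with an adjusted p of 0.71 in limma, and it was 1.86 ± 0.64 without WT replicate 3 (adjusted p = 0.84).

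Ifit2 encodes a tetratricopeptide protein that restrains translation of viral RNA. Its brightest probe, ILMN_2981167, read 241.8, 295.1 and 191.2 in Klf4-deficient cells, against 3.1, 18 and 162.7 in WT cells. Here WT replicate 3 was the 1 WT array above the floor, the reverse of Rsad2. On that probe Klf4-deficient minus WT was 2.12 ± 0.72 (log2, SE, n = 3 per group), with an adjusted p of 0.71 in limma. Without WT replicate 3, which left both WT arrays at the floor, Klf4-deficient cells read higher by at least 2.90 ± 0.27, with an adjusted p of 0.27, the lowest of the list in that setting. That SE and p, and so that rank, leave out the spread between WT preparations. The other Ifit2 probe, ILMN_2981169, read 102.2, 250.4 and 28.5 against 2.9, 23.8 and 6.4 in WT cells. Its difference was 1.55 ± 0.77, with all WT values set to the floor.

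Isg20, an exonuclease that degrades single-stranded RNA, read 173, 50.4 and 66.7 in Klf4-deficient cells, against 20.5, 8.5 and 22.5 in WT cells. All WT arrays lay at the floor, so the excess in Klf4-deficient cells was 2.61-fold at least (1.38 ± 0.49 log2, SE, n = 3 per group; adjusted p = 0.71 in limma). With a floor of 64 the difference was 0.50 and the groups overlapped, and it was 0.86 without Klf4-deficient replicate 1. Leaving out WT replicate 3 gave the same difference, with an adjusted p of 0.84. The WT values of Isg20 were all set to the floor, so its SE and p leave out the spread between WT preparations. Eif2ak2 encodes PKR, the kinase that stops translation when it binds double-stranded RNA. It read 465, 726.6 and 159.5 in Klf4-deficient cells, against 216.3, 60.4 and 5.9 in WT cells. The groups overlapped, since Klf4-deficient replicate 3 was below WT replicate 1. The difference was 2.34 ± 0.92 (adjusted p = 0.71), and 1.72 ± 0.93 without WT replicate 3 (adjusted p = 0.84).

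The remaining effectors of that role were spread around no difference. Oas2, a synthase of the oligoadenylates that activate RNase L, read 10.5, 51.7 and 74.6 in Klf4-deficient cells, against 13.4, 15 and 28 in WT cells, with no WT array above the floor (0.64 ± 0.34 log2, adjusted p = 0.71, and 0.64 without WT replicate 3). Oasl2, a protein of the same family, was above the floor on all arrays, with 144.1, 203 and 39.4 in Klf4-deficient cells, against 93.3, 137.5 and 187.2 in WT cells. The Oasl2 groups overlapped fully, and the difference was -0.35 ± 0.70 (-0.11 without WT replicate 3). Samhd1, which hydrolyses the nucleotides needed for reverse transcription, read 163.9, 33.1 and 47.3 against 15.4, 84.8 and -0.8 in WT cells (0.52 ± 0.75, and 0.29 without WT replicate 3). Ifit3, a partner of the other IFIT proteins, read 28.8, 130.7 and 68 against 1.1, 19.9 and 301.7 in WT cells. Its highest value of all arrays was in WT replicate 3, and the difference went to 1.04 ± 0.66 without that array, against -0.04 ± 1.08 with it. Adar, the enzyme that converts adenosine to inosine in double-stranded RNA, read 15.8, 34.1 and 34.5 against 24.7, 11.5 and 83.4 in WT cells (-0.39 ± 0.43, and 0.07 without WT replicate 3). Ifit1, which binds uncapped and unmethylated RNA ends, was above the floor only in Klf4-deficient replicate 3, at 88.2. Oas1a, Oas3 and Oasl1 lay at the floor on all arrays.

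In the ISG15 system, the ubiquitin-like modifier Isg15 read 190.1, 290.6 and 264.2 in Klf4-deficient cells, against 229.9, 197.9 and -9.4 in WT cells. WT replicate 3 lay at background and the other WT arrays within the Klf4-deficient range. The Isg15 difference of 1.11 ± 0.83 (log2, SE, n = 3 per group, adjusted p = 0.71) was 0.20 ± 0.28 without that array. Usp18, the protease that removes ISG15 from proteins and also silences the interferon receptor, read 368.4, 29.3 and -6.5 in Klf4-deficient cells, against 55.8, 77.4 and 0.2 in WT cells. A single Klf4-deficient array set its difference of 0.48 ± 1.09, which was -0.69 without Klf4-deficient replicate 1. Leaving out WT replicate 3 gave 0.14.

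The interferon-inducible GTPases, which attack the vacuoles of intracellular pathogens, did not differ in one direction. Irgm1, also known as a regulator of autophagy and of stem cell quiescence in mice, was above the floor on all arrays, with 686.9, 1861.3 and 2114.7 in Klf4-deficient cells, against 1012, 1381 and 1544.8 in WT cells. The 3 WT values lay within the Klf4-deficient range, and the difference was 0.11 ± 0.50 (log2, SE, n = 3 per group, adjusted p = 0.92), or 0.24 without WT replicate 3. Igtp, another member of that family, read 8.4, 56.6 and 86.7 against 149.4, 18.9 and 194.2 in WT cells (-0.85 ± 0.81, and -0.36 without WT replicate 3). Igtp thus had its 2 highest values in WT arrays, but WT replicate 2 was at the floor. Ifi47 read 93.8, 85.3 and 12 against 41.5, 127.8 and 2.3 in WT cells (0.20 ± 0.71, and -0.20 without WT replicate 3). Gbp2, a guanylate-binding protein, read 13.8, 66.7 and 107.7 against 32.1, 66.8 and 121 in WT cells, nearly the same 3 levels in each group (-0.06 ± 0.67, and 0.40 without WT replicate 3). Gbp3 was above the floor on 1 array, at 40.2 in Klf4-deficient replicate 2.

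Of the 5 membrane and capsid effectors, 3 were at the floor throughout. Mx1 and Mx2, dynamin-like GTPases that trap viral nucleocapsids, and Bst2, the tetherin that holds virions at the cell surface, lay below the floor on all arrays. Plscr1, a phospholipid scramblase, was the member with the most negative difference. On its brightest probe it read 27.8, 32 and 28.1 in Klf4-deficient cells, all at the floor, against 89.6, 84.1 and 5.1 in WT cells. The difference was -0.96 ± 0.45 (log2, SE, n = 3 per group; adjusted p = 0.71 in limma). Without WT replicate 3 the groups no longer overlapped, and the difference was -1.44 ± 0.18 (adjusted p = 0.43). The Klf4-deficient values were all set to the floor, so these SEs and p-values leave out the spread between Klf4-deficient preparations. The other Plscr1 probe was above the floor in Klf4-deficient replicate 3 at 42.8 and in WT replicate 3 at 59.3, a difference of -0.16 ± 0.32. Plscr1 is named beside the genes of the naming rule because it was the 1 member above the floor on WT arrays alone on its brightest probe, seen after its values were known. Ifi27, a small membrane protein, read 217.1, 15.7 and 49.5 against 47, 253.3 and 8.7 in WT cells (-0.05 ± 1.10, and -0.64 without WT replicate 3). The other Ifi27 probe was above the floor on WT arrays alone, at 60.4 and 85.8 in WT replicates 1 and 2 (-0.78 ± 0.39).

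Sensors and transcription factors, read on the brightest probe unless stated, gave few readings above the floor. Ifih1, the sensor MDA5 for long double-stranded RNA, lay below it on all arrays. Ddx58, the sensor RIG-I for RNA ends with a triphosphate, was above it on 2 arrays, with 57.3 in Klf4-deficient replicate 3 and 229.5 in WT replicate 3 (-0.67 ± 0.88, and 0.28 without WT replicate 3). Dhx58, which encodes the related helicase LGP2, was above it on 1 array, at 59 in Klf4-deficient replicate 2, and a further probe was above it in Klf4-deficient replicate 1 at 55.1. Zbp1, a sensor of Z-form nucleic acid, reached 101.2 in Klf4-deficient replicate 2 and 57.3 in WT replicate 2, and a further probe 39.8 in Klf4-deficient replicate 1. Of the transcription factors, Irf7 and Stat2 lay below the floor on all arrays. Irf9, the DNA-binding partner of the STAT proteins, read 43.3 in Klf4-deficient replicate 2 and 45.2 in WT replicate 2 and below the floor elsewhere. Irf1 reached 106.6 in Klf4-deficient replicate 2 and 114.7 in WT replicate 3, with the other arrays below the floor (-0.04 ± 0.75, and 0.58 without WT replicate 3). Its further probes were above the floor in Klf4-deficient replicate 1 at 50.9 to 82.8, in Klf4-deficient replicate 2 at 118.4 and in WT replicate 2 at 69.7. Of these 8 genes, 3 were at the floor on every probe, and the brightest probe of the other 5 was above it on 1 or 2 arrays.

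The other induced genes had no common direction. Rtp4, a Golgi chaperone of receptors that also binds viral RNA, read 9.4, 421.4 and 44.3 in Klf4-deficient cells, against 62.1, 4.7 and -2.2 in WT cells. Its difference of 1.08 ± 1.07 (log2, SE, n = 3 per group) rested on Klf4-deficient replicate 2 and was -0.08 without it, and 0.92 without WT replicate 3. Xaf1, an antagonist of the apoptosis inhibitor XIAP, read 64.8, 65.7 and 91.4 against 66.5, 162.1 and 18.3 in WT cells (0.06 ± 0.63, and -0.51 ± 0.47 without WT replicate 3). The chemokine Cxcl10 read 19.7, 86.2 and 37.5 against 83.8, 16.3 and 44.5 in WT cells (-0.07 ± 0.55, and -0.14 without WT replicate 3). Parp14, an ADP-ribosyltransferase, was above the floor in Klf4-deficient replicate 2 at 37 and in WT replicate 2 at 188.4 (-0.78 ± 0.76, and -1.21 without WT replicate 3). Trim30a and Ifi35 were above it on 1 Klf4-deficient array each, at 94.7 and 55.8.

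**Figure D2:**
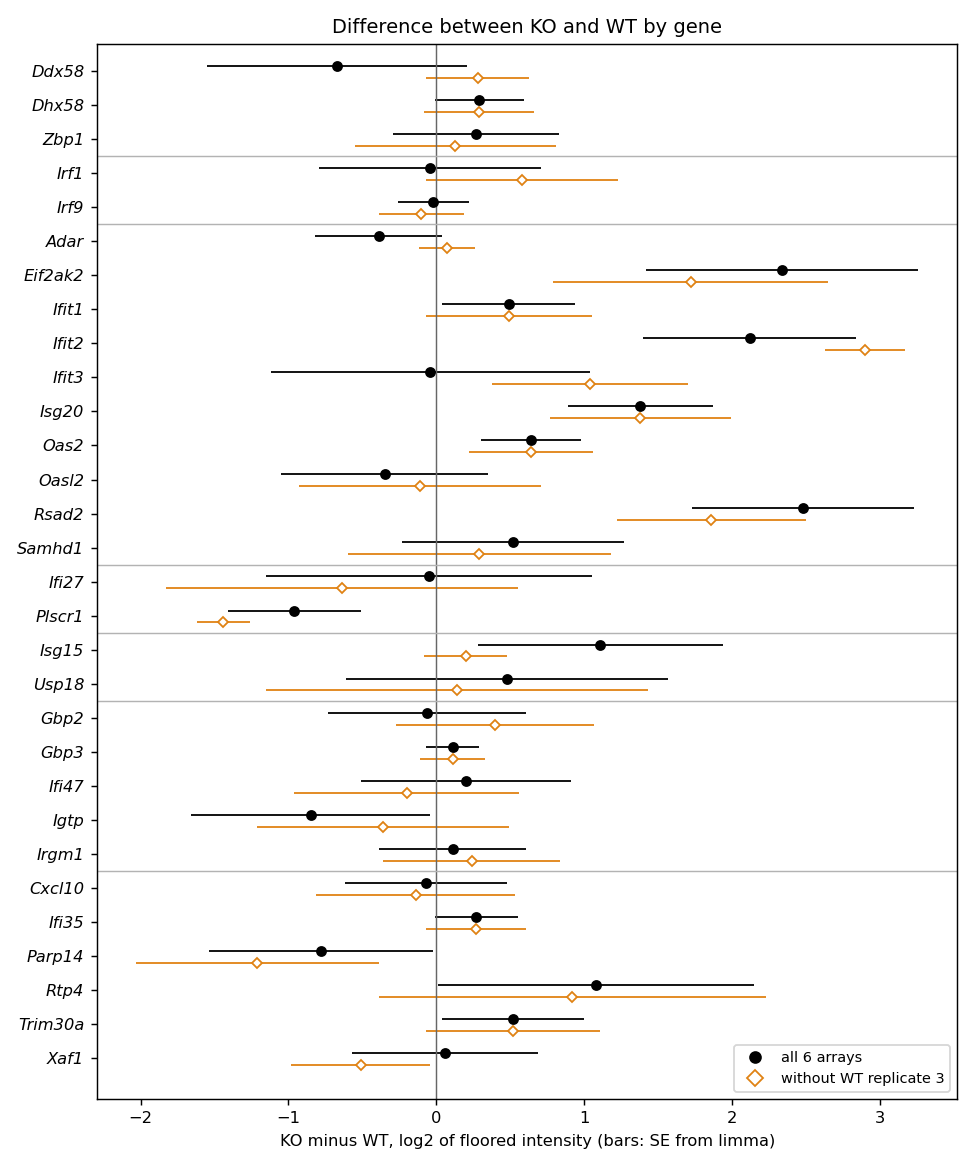
Difference of Klf4-deficient (KO) minus WT cells for the same 30 genes in log2 of floored intensity, with SE from limma, over all 6 arrays (black circles) and without WT replicate 3 (orange diamonds). Rsad2 at 2.48, Eif2ak2 at 2.34 and Ifit2 at 2.12 lay farthest to the right, Plscr1 at -0.96 farthest to the left. Isg15 moved to 0.20 from 1.11 and Ifit3 to 1.04 from -0.04 when that array was left out.

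The members differed in which arrays read them above the floor. In these bulk preparations, fewer cells that express a gene and less RNA per cell cannot be told apart. Of the 30 genes, 11 (36.7%) had their highest value in Klf4-deficient replicate 2, against 3 and 4 in Klf4-deficient replicates 1 and 3, and 1, 5 and 6 in WT replicates 1 to 3. Over all genes fitted, Klf4-deficient replicate 2 held the highest value of 11.8% and WT replicate 3 of 33.8%. These shares include the genes above the floor on WT replicate 3 alone, and no member was of that kind. Dhx58, Gbp3 and Trim30a were above the floor on Klf4-deficient replicate 2 alone, and Ifit1 and Ifi35 on Klf4-deficient replicate 3 alone. For these genes the filter fixed where the highest value lay. The count is not given without WT replicate 3. Among the 18 members above the floor on at least 3 arrays, 12, 16 and 16 were above it in Klf4-deficient replicates 1 to 3, and 13, 11 and 8 in WT replicates 1 to 3. The 3894 genes measured that often were above the floor at 77.8% to 79.1% on Klf4-deficient arrays, at 75.8% to 79.6% on WT replicates 1 and 2, and at 44.9% on WT replicate 3. The low count of members in WT replicate 3, 44.4%, was thus close to that of genes in general, while Klf4-deficient replicate 1 (66.7%), WT replicate 1 (72.2%) and WT replicate 2 (61.1%) lay below the share of genes in general and Klf4-deficient replicates 2 and 3 (88.9% each) above it.

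**Figure D3:**
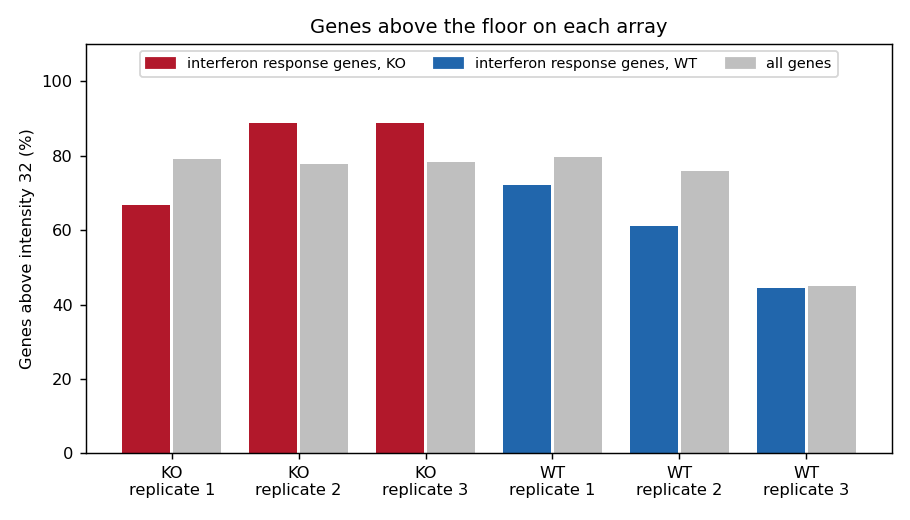
Share of genes above an intensity of 32 on each array, for the 18 interferon response genes (coloured bars, red for KO and blue for WT) and all 3894 genes (grey bars) above it on at least 3 of 6 arrays. The members' share was 88.9% in Klf4-deficient (KO) replicates 2 and 3 and 44.4% in WT replicate 3, where all genes stood at 44.9%.

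Several probes of a gene often disagreed. Of the 39 genes, 22 had more than 1 probe, and 15 had more than 1 above the floor. Among the pairs of such probes, 16 had the same sign of the difference and 14 the opposite sign, so 53.3% shared it, beside 56.4% over all genes. The pairs were not spread evenly, since Irf1, with 5 probes, held more than any other gene. Irf1 gave -0.04 on its brightest probe and 0.46, 0.33, 0.63 and -0.15 on the others. The probes of Ifit2 (2.12 and 1.55), Rtp4 (1.08 and 0.81), Dhx58 (0.29 and 0.26), Usp18 (0.48 and 0.13) and Zbp1 (0.27 and 0.10) were all higher in Klf4-deficient cells. Those of Plscr1 (-0.96 and -0.16) and Ifi27 (-0.05 and -0.78) were all lower. The further probe of Oasl2 gave 0.56 ± 0.84, that of Ifit3 0.58 ± 0.81, that of Cxcl10 0.66 ± 0.60 and that of Parp14 0.67 ± 0.60, each opposite to the brightest probe. Gbp2 gave 0.71 and 0.36 on its further probes, opposite to -0.06. Samhd1 gave 0.64 on one further probe and -0.12 on the other. The filter fixed some of these signs. Both fitted Dhx58 probes and the further fitted probes of Ifit2, Rtp4, Zbp1, Cxcl10 and Parp14 were above the floor on Klf4-deficient arrays alone. So were the Irf1 probes at 0.46, 0.33 and 0.63 and the Gbp2 probe at 0.36. The brightest Plscr1 probe and the further Ifi27 probe were above it on WT arrays alone. The sign of such a probe is no check of another probe. Of the 2 further Irgm1 probes, one gave 1.08 ± 1.14, with 457.9 in Klf4-deficient replicate 2, and the other 0.00 ± 0.23. Rsad2, Isg20, Eif2ak2 and Isg15 had 1 probe each, so their differences have no second probe to set beside them. Probe sequences were not used here, and hybridisation to close relatives in the Ifit, Oas, Gbp and Irgm families was not tested.

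**Figure D4:**
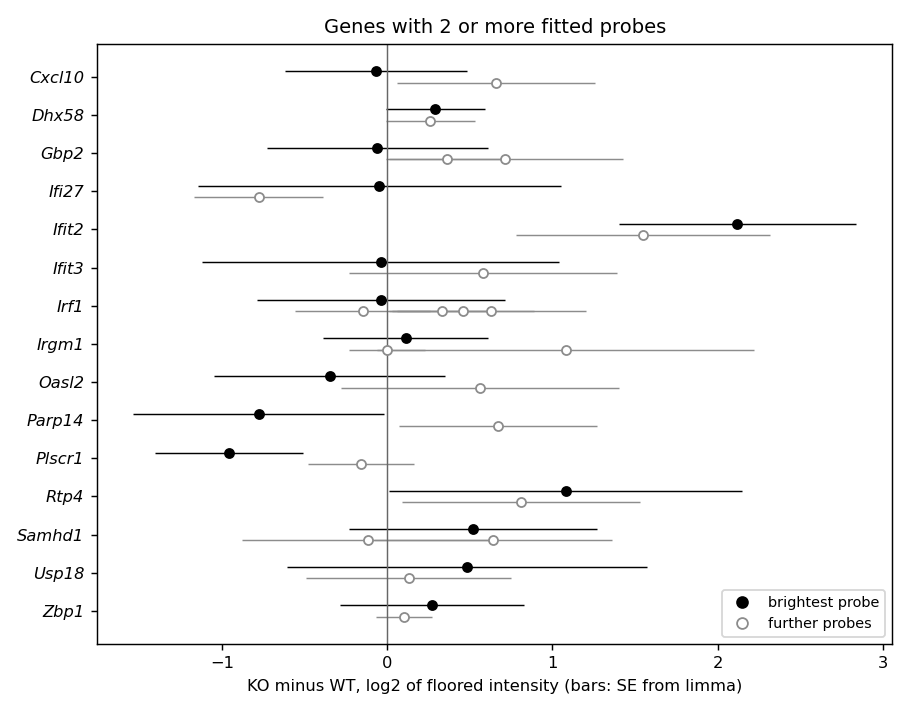
Difference of Klf4-deficient (KO) minus WT cells, in log2 of floored intensity with SE from limma, for the 15 interferon response genes with at least 2 probes above the floor. Filled circles are the brightest probe and open circles the further probes. Both Ifit2 probes lay above 1, at 2.12 and 1.55, while 14 of the pairs of probes of a gene had opposite signs. A probe above the floor in 1 group alone had its sign fixed by the filter.

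Other genes of the pathway were compared on the same fit. Of 22 ligands, receptors and signalling genes with a probe, 7 lay at the floor on all arrays, 7 read higher and 8 lower in Klf4-deficient cells, and 0 were called (median difference 0 on the log2 scale, and 0.19 without WT replicate 3 over the 13 still above the floor). The ligand gene Ifnb1, the receptor chain Ifnar1 and the receptor kinases Jak1 and Tyk2 were among those at the floor. The other receptor chain, Ifnar2, read 61.5, 5.1 and 20 in Klf4-deficient cells, against 11.5, 67 and 77.9 in WT cells. Smallest in p were Ifngr2 and Pias1. Ifngr2, a chain of the type II interferon receptor, was bright on all arrays, with 9624, 8618.6 and 10027.8 in Klf4-deficient cells, against 9031.5, 5090 and 3492.9 in WT cells (0.79 ± 0.38 log2, adjusted p = 0.71, and 0.47 without WT replicate 3). Pias1, a SUMO ligase, read 4.4, 23.6 and 13.9 against 114.9, 9.7 and 2430.7 in WT cells, a difference set mainly by WT replicate 3 (-2.70 ± 1.63, and -0.92 without it). Its Klf4-deficient values were all set to the floor, so its SE and p leave out their spread.

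Of 11 genes of nucleic acid sensing and its adaptors, 5 lay at the floor, 3 read higher, 3 lower and 0 were called (median difference 0.19, and 1.28 without WT replicate 3 over the 4 still above the floor, which lacked Ticam1 and Ikbke, both lower with that array). Myd88, the adaptor of most Toll-like receptors, read 169.5, 20.8 and 259 in Klf4-deficient cells, against -2.2, 0.6 and -15.4 in WT cells, an excess that came from 2 Klf4-deficient arrays (1.81 ± 0.82, adjusted p = 0.71, and 1.81 without WT replicate 3). Tbk1, the kinase that phosphorylates IRF3, read 994.9, 6.7 and 178.5 against 12, 39.1 and -10.5 in WT cells (2.38 ± 1.26, adjusted p = 0.71, and 2.33 without WT replicate 3). Of 44 further interferon-inducible genes with a probe, 9 lay at the floor, 20 read higher and 15 lower, and 0 were called (median difference 0.07, and 0.16 without WT replicate 3 over the 33 still above the floor). Their smallest p-values were those of Shfl and Dtx3l, in opposite directions. Shfl, an antiviral inhibitor of ribosomal frameshifting, read 1.2, 10.2 and 1.7 in Klf4-deficient cells, against 152.6, 363.4 and 109.5 in WT cells (-2.51 ± 0.48, adjusted p = 0.71, and -2.88 without WT replicate 3). Dtx3l, a ubiquitin ligase that works with PARP9, read 133.6, 201.9 and 93 against 68.1, 8.3 and 11.5 in WT cells (1.72 ± 0.45, adjusted p = 0.71, and 1.54 without WT replicate 3). The Klf4-deficient values of Shfl and the WT values of Myd88 were all set to the floor. The SE and p of each, and so its rank by p, leave out the spread in that group.

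Markers of other blood cell types, several of which the lineage-negative gate is meant to remove, were set beside these values, each list summed over its brightest probes with values below 0 counted as 0. Of 8 plasmacytoid dendritic cell markers, cells known for interferon production, 4 lay at the floor on all arrays, Spib, Ccr9, Klk1 and Cox6a2, and 1 read higher and 3 lower. Their sum was 1350 to 2914 in Klf4-deficient arrays and 1566 to 4136 in WT arrays, most of it Siglech. Of 8 conventional dendritic cell markers, 3 lay at the floor, Itgax, Xcr1 and Clec9a, and 5 read lower. They summed to 73.6 to 968.5 in Klf4-deficient arrays and 349.8 to 1978 in WT arrays. H2-Ab1, a chain of the class II antigen-presenting complex, read -4.3, 43.2 and 1.5 in Klf4-deficient cells, against 103, 417 and 1167.1 in WT cells (-3.38 ± 0.91, adjusted p = 0.71, and -2.55 without WT replicate 3). Among 7 markers of monocytes and macrophages, F13a1, Fcgr1 and Cx3cr1 lay at the floor, 1 read higher and 3 lower. They summed to 125.6 to 175 in Klf4-deficient arrays and 81.1 to 539.9 in WT arrays, with the highest sum in WT replicate 3. Of 11 neutrophil lineage markers, Ngp and Retnlg lay at the floor, 4 read higher and 5 lower. Their sum was 2207 to 3201 in Klf4-deficient arrays and 2682 to 7832 in WT arrays, again highest in WT replicate 3. Mpo alone made up 7153.2 of the sum in WT replicate 3. Ltf, Mmp8 and Elane read 291.9, 308.4 and 37.4 there, while Prtn3, Ctsg, Camp, S100a8 and S100a9 lay at the floor on that array. Of 10 T and NK cell markers, Cd2, Klrb1c and Ncr1 lay at the floor, 3 read higher and 4 lower, with sums of 173.9 to 278.7 in Klf4-deficient arrays and 92.5 to 342.4 in WT arrays. Of 6 B cell markers, Cd79b, Ms4a1, Pax5 and Igll1 lay at the floor and 2 read higher, with sums of 62.7 to 149.5 in Klf4-deficient arrays and 61.2 to 101.1 in WT arrays. Of 6 erythroid markers, Epor lay at the floor and the other 5 read higher in Klf4-deficient cells, with sums of 2973 to 3808 in Klf4-deficient arrays and 1371 to 3011 in WT arrays. The median difference of these 5 was 1.03, and 0.50 without WT replicate 3. Alas2, the first enzyme of haem synthesis in red cells, read 172, 114.1 and 160.7 in Klf4-deficient cells, against 8.8, 26.1 and -15 in WT cells, all at the floor (2.20 ± 0.22, adjusted p = 0.59, and 2.20 without WT replicate 3). H2-Ab1 and Alas2 were named after their values were seen, and the SE and p of Alas2 leave out the spread between WT preparations. None of these markers was called. Of 2 genes with a probe in the list kept for the sort gate, Kit and Cd34, 1 read higher and 1 lower. Only Kit belongs to the gate stated at the start, which does not name Cd34. Kit read 118.1, 7.3 and 63.1 against 11.5, 17.4 and 381.5 in WT cells (-0.24, and 0.95 without WT replicate 3). It lay at the floor in Klf4-deficient replicate 2 and WT replicates 1 and 2, although the cells were sorted for its protein. Cd34 read 6.6, 12.8 and 43.2 against 28.9, 6.9 and -6.2 (0.14 with and without WT replicate 3). Ly6a, the gene of Sca-1, was not analysed here. The part of any of these cell types in the interferon gene values was not tested.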

How the data were processed

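Per the labels' protocols, a service laboratory prepared and hybridised total RNA to Illumina mouse bead arrays, with BeadStudio named in the submitters' processing notes. The deposited values are intensities, background-subtracted and on one linear scale, from -31 to 37007.2. How they were corrected and scaled is not stated there. Probes were named through the platform annotation (34885 of 45281 with 1 symbol), with symbols looked up by Entrez number in a RefSeq list. Values were floored at 32 and log2 taken. The 18270 probes above 32 on at least 1 of 6 arrays were fitted with limma 3.58.1 (R 4.3.3), Klf4-deficient against WT, with Benjamini-Hochberg adjustment over all probes, a threshold of 0.05 and no replicate block. A gene was read from its brightest probe. A member was given by its 6 values where that probe exceeded 32 on at least 3 arrays or its groups did not overlap. Of each pathway list, the 2 genes smallest in p were named. The members and lists were chosen with earlier results of these data known, so no list was tested. Fits were tested on simulated data. The alternatives were other floors, offsets, filters, probe rules, variance models, weights, a block and leaving out each array. The number of arrays limits the precision.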

Additional observations from a re-analysis of the deposited data

How the results depend on the processing

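No interferon response gene was called under any of the 18 alternatives, where the lowest adjusted p of the list ran from 0.21 (Ifit2 with array weights) to 0.92. For Ifit2, WT replicates 1 and 2 lay at the floor, and WT replicate 3 had a weight of 0.0648. Its SE and p with array weights thus leave out much of the spread between WT preparations. Over all features, 1 was called with all probes fitted, 1 with each gene's probes averaged and 1 with the ordinary t statistic, and 0 elsewhere, and the probes or genes at an unadjusted p under 0.05, 371 in the reported fit, ran from 175 (trend and robust eBayes) to 809 (without WT replicate 2). With probes above 32 on at least 3 arrays, 11 of 18 members read higher in place of 18 of 30. Leaving out 1 array gave 3 to 6 members without overlap (11.1% to 20%, beside 7.02% to 10.4% of all genes), 12 to 21 higher, and medians of -0.08 to 0.39. Among the 18 genes given by value, 6 kept their sign under every alternative (Eif2ak2, Ifit2, Igtp, Isg15, Isg20 and Rsad2). Isg20 was lowest, at 0.50, with a floor of 64. The other 12 changed sign under at least 1 alternative, and the cause was not tested. A floor of 64 gave Cxcl10 0.01, Ifi47 -0.01 and Xaf1 -0.28. Offsets of 16 and 32 gave Ifi27 0.07 and 0.03 and Ifit3 0.50 and 0.26. The mean of the probes gave Cxcl10 0.30, Gbp2 0.34, Ifit3 0.27 and Oasl2 0.07. Array weights, lowest for WT replicate 3 (0.0648), gave Adar 0.03, Gbp2 0.43, Ifi47 -0.04, Ifit3 1.01 and Xaf1 -0.39. Leaving out 1 array gave ranges of -0.62 to 0.07 for Adar, -0.51 to 0.31 for Cxcl10, -0.55 to 0.41 for Gbp2, -0.87 to 0.85 for Ifi27, -0.20 to 0.80 for Ifi47, -0.58 to 1.04 for Ifit3, -0.19 to 0.62 for Irgm1, -0.83 to 0.35 for Oasl2, -0.08 to 1.78 for Rtp4, -0.16 to 0.99 for Samhd1, -0.69 to 1.07 for Usp18 and -0.51 to 0.66 for Xaf1. Replicate numbers were not taken to pair the arrays: deviations from the group means correlated at 0.0322, 0.0399 and 0.0401 between arrays of one number, although each of the 6 arrays correlated best with its own number. The pairing as a term in the fit, that is the replicate block, gave 0 called members and 362 probes at an unadjusted p under 0.05. The floor of 32 was a chosen value and not a measured limit of detection. A signal below 32 or close above it was not told from background.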
